A study of Mus musculus with 18 samples.

Results

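Genes of serotonin, noradrenaline and monoamine breakdown were measured in the brains of mice dosed with the herbicide glyphosate: Tph2, Slc6a4 and Fev of serotonin neurons, Dbh and Slc6a2 of noradrenaline neurons, and Maoa and Maob, the genes of the monoamine oxidases. They were chosen by symbol, and all 7 were found among the 27179 genes of the count table. RNA was sequenced from half-brains of 18 C57BL/6J mice of genotype WT, 10 males and 8 females, which were dosed every day for 14 days by oral gavage from 4 months of age. The vehicle group had 5 mice (3 females, 2 males), given the same pH-adjusted solution without glyphosate, and the glyphosate groups had 5 mice at 125 mg/kg (2 females, 3 males), 4 at 250 mg/kg (1 female, 3 males) and 4 at 500 mg/kg (2 females, 2 males). Each library came from 1 mouse, and the label G with a number names the mouse.

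Serotonin neurons lie in the raphe nuclei along the midline of the brainstem, and most noradrenaline neurons of the brain lie in the locus coeruleus and other small brainstem groups. Both types are few in number and send axons through the whole brain, but their messenger RNA is mostly in the cell bodies. Tph2 makes the rate-limiting enzyme of serotonin synthesis in the brain, Slc6a4 the serotonin transporter, and Fev (Pet-1) an ETS-family factor that sets serotonin neuron identity and acts on both other genes. Dbh makes the enzyme that turns dopamine into noradrenaline, and Slc6a2 the noradrenaline transporter. Maoa and Maob make mitochondrial enzymes that oxidise monoamines, MAO-A with a preference for serotonin and noradrenaline and MAO-B found in astrocytes and serotonin neurons.

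The members lie on 6 chromosomes of GRCm38 (GRCm38.p6). Tph2 spans chr10:115078641-115185022 on the minus strand, Slc6a4 chr11:76998597-77032343 on the plus strand and Fev chr1:74881501-74885473 on the minus strand. Dbh spans chr2:27165507-27183204 and Slc6a2 chr8:92960470-93001667, both on the plus strand. Maoa (chrX:16619698-16687812, plus strand) and Maob (chrX:16709281-16817366, minus strand) are neighbours on the X chromosome, with their 3′ ends facing each other across 21468 bp. Merged over transcripts, the annotated exons add up to 2879 bp for Tph2, 4531 bp for Slc6a4, 1617 bp for Fev, 2692 bp for Dbh, 6290 bp for Slc6a2, 4167 bp for Maoa and 2789 bp for Maob.

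The 250 bases before the RefSeq start of the 3 serotonin neuron genes are shown because these genes varied together between mice, with the ETS core GGAA, the letters that ETS factors such as FEV bind, in capitals on either strand (TTCC on the other strand). They are read 5′ to 3′ on the strand of the gene, at chr10:115185023-115185272 (minus strand) for Tph2, chr11:76998347-76998596 (plus strand) for Slc6a4 and chr1:74885409-74885658 (minus strand) for Fev. RefSeq sequences of GRCm38.p6 matched 5 of the 7 members. The start used for Fev lies inside the Fev span given above. The last bases of its window, with the GGAA 59 bases before that start, therefore lie within that span.
Tph2: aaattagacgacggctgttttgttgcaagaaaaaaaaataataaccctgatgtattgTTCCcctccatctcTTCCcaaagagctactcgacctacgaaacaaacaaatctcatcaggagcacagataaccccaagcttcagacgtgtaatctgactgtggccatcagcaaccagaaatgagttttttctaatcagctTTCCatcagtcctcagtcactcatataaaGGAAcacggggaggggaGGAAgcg
Slc6a4: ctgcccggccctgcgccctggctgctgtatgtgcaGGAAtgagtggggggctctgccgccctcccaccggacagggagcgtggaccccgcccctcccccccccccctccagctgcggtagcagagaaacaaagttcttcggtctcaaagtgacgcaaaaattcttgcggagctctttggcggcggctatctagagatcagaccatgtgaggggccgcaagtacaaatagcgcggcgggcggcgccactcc
Fev: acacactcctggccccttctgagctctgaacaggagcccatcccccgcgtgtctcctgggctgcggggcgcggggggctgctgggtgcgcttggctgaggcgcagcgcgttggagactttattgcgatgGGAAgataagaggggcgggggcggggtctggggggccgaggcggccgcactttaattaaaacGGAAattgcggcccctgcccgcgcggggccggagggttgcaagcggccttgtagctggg

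GGAA was found 5 times before Tph2, 1 time before Slc6a4 and 2 times before Fev, and 93.4% of all 32851 promoters of this length held it at least once, with a median of 3 matches. The longer form CCGGAA, in 12% of all promoters, was in none of the 3. A TATAAA sequence, held by 12.4% of promoters, began 30 bases before the start of Tph2 and was not in the windows of Slc6a4 and Fev. The GC box GGGCGG, held by 32.7% of promoters, was found 3 times before Slc6a4 and 2 times before Fev. The window of Tph2 was 43.6% G and C, against 64.8% for Slc6a4, 68% for Fev and a median of 52.4% over all promoters. Also searched, on both strands like the others, were the homeodomain core ATTA (54.9% of promoters), the CRE core TGACG (17.8%) and AGAACA, part of the site of the glucocorticoid receptor (16.1%). Of these 7 motifs the ETS core was the only one in all 3 windows, and the longer ETS form holds the core within it.

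Of the noradrenaline genes, the same window of Dbh (chr2:27165257-27165506, plus strand) is shown with the homeodomain core ATTA in capitals, since PHOX2A, a factor of noradrenaline neurons, is a homeodomain protein. This core was found 3 times here, 4 times before Tph2 and 2 times before Fev, with a median of 1 over all promoters. It was not found before Slc6a4 or Maoa. The ETS core GGAA was found 2 times before Dbh and 2 times before Maoa.
Dbh: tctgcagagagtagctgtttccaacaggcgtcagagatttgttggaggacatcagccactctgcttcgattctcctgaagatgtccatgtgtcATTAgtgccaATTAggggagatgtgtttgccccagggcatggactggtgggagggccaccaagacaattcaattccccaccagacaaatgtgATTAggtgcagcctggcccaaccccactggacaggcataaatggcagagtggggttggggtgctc

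The Maoa window (chrX:16619448-16619697, plus strand) held 1 GC box, 46 bases before the start, which is the type of site bound by Sp1-family factors.

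The libraries held 3948096 to 11732885 counted reads, with a median of 7789800. Levels are given as CPM, the reads of a gene scaled to the size of its library (TMM), at which a count of 0 allows a level of up to 0.279 to 0.74 CPM, depending on the library (3 counts, covering counting error only). The genes of the sex chromosomes matched the stated sex in 18 of 18 mice. Vehicle mouse G9 and 500 mg/kg mouse G4, both females, stood apart, with median correlations of 0.942 and 0.943 with the other libraries, against 0.959 to 0.975 for the rest. Their summed levels of 9 forebrain glutamatergic marker genes, 494 CPM in G9 and 534 CPM in G4, were the lowest, against 1577 to 4841 CPM in the other mice, so results are given with and without them. The number of G4 lies among those of the vehicle mice, G1 to G18, while it shares its tag number with G79, and its stated dose of 500 mg/kg was used.

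The 5 neuron-type genes were measured at low levels, which for the 4 tested of them differed between mice far more than those of most genes, whereas both oxidase genes were at higher levels and differed less between mice. Per kilobase of exon, the median level over the 18 mice was 7.1 CPM for Maoa, 6.45 for Maob, 0.695 for Tph2, 0.25 for Slc6a2, 0.206 for Dbh, 0.197 for Slc6a4 and 0.0699 for Fev. Maoa and Maob did not differ beyond their spread on this scale, with ratios of Maoa to Maob within a mouse from 0.52 to 1.79 and a median of 0.98, and the ranges of the 5 neuron-type genes overlapped one another. The SD of log2(CPM + 1) over the mice was 1.81 for Tph2, 1.78 for Slc6a4, 1.39 for Dbh and 1.98 for Slc6a2, higher than that of at least 99.5% of the 15863 genes tested, against 0.392 for Maoa, 0.444 for Maob and a median of 0.304 over all tested genes. The SD of Maoa was higher than that of 69.3% and that of Maob higher than that of 77.8% of the genes tested.

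Tph2, the gene that defines brain serotonin neurons, was high in 1 mouse of each group. In the vehicle group its level was 0.154 CPM in G1, 1.26 in G5, 3.44 in G9, 1.72 in G15 and 12.6 in G18. At 125 mg/kg it was 2.07 CPM in G25, 0.743 in G29, 0.803 in G34, 1.17 in G40 and 23.4 in G45. At 250 mg/kg it was 0.74 CPM in G49, 1.93 in G64, 15 in G66 and 1.41 in G71. The highest mouse of these 3 groups stood well above the other mice of its group, and the 3 groups overlapped over nearly their whole range. At 500 mg/kg the level was 185 CPM in G4, 4.86 in G79, 3.68 in G87 and 10.1 in G90. In that group only G4 exceeded the highest vehicle mouse, G18. The 3 other mice lay within the vehicle range, below G18 and above the other vehicle mice. The group medians were 1.72, 1.17, 1.67 and 7.47 CPM in order of dose. G4 alone held 1440 of the 2128 Tph2 counts of the series and 68.5% of the summed level, while 5 mice had under 10 counts. In bulk tissue, fewer cells of a type and less RNA per cell cannot be told apart.

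**Figure D1:**
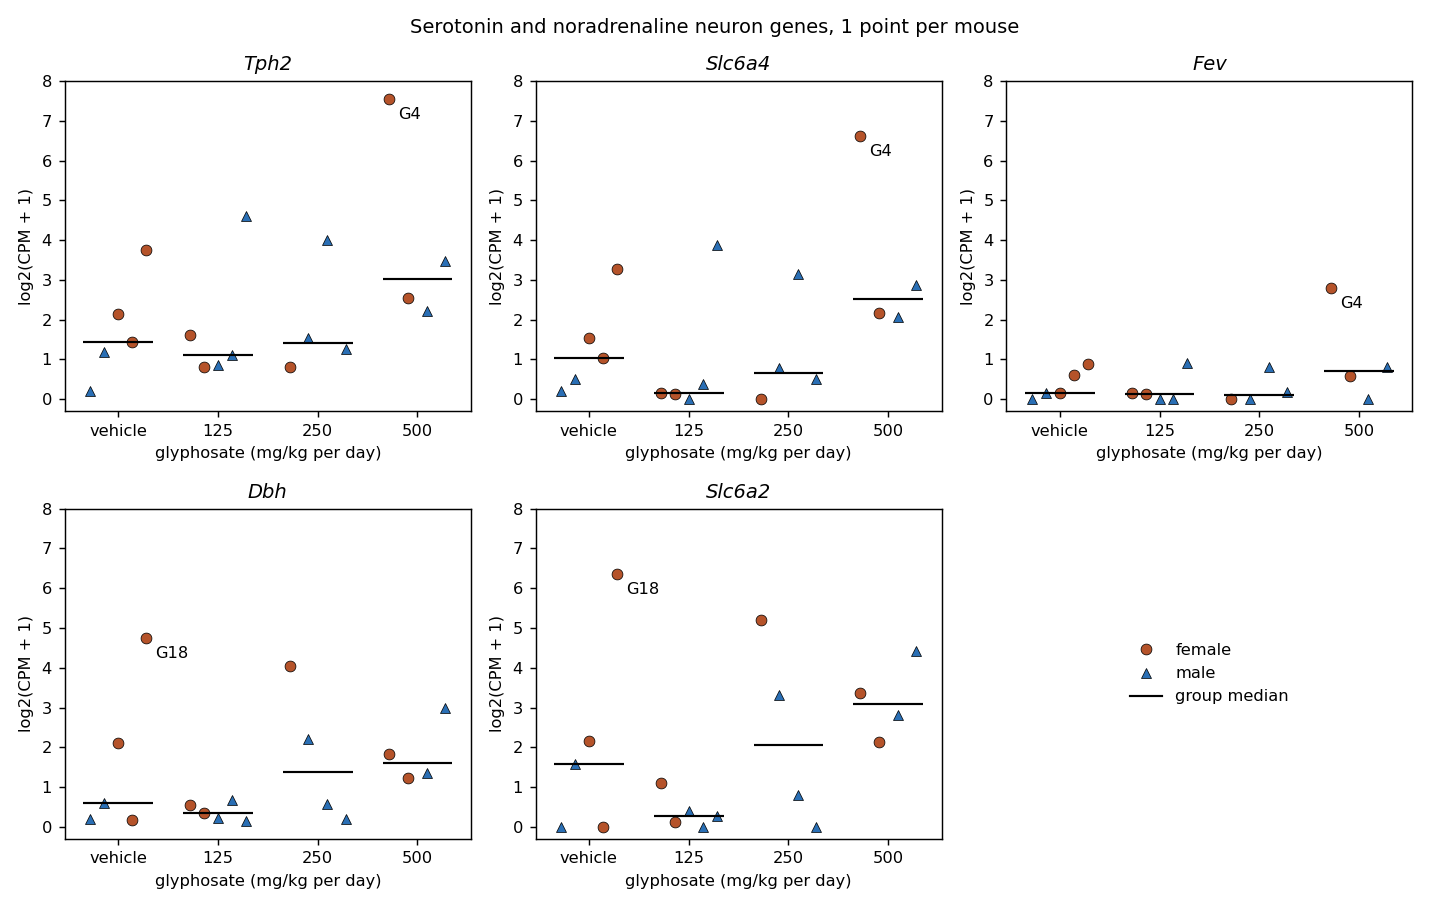
Levels of Tph2, Slc6a4, Fev, Dbh and Slc6a2 as log2(CPM + 1) (vertical axis) in each mouse by dose group (horizontal axis), with females as circles, males as triangles and the group median as a line. Mouse G4 at 500 mg/kg is highest for the 3 serotonin neuron genes, at 7.54 for Tph2, and vehicle mouse G18 is highest for Dbh and Slc6a2.

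Slc6a4, the serotonin transporter gene, followed the same mice. Its level in the vehicle group was 0.154 CPM in G1, 0.421 in G5, 1.88 in G9, 1.06 in G15 and 8.70 in G18. At 125 mg/kg, G45 had 13.7 CPM, G40 0.292, G25 0.115 and G29 0.0929, and G34 had no count. At 250 mg/kg, G66 had 7.87 CPM, G64 0.723 and G71 0.422, and G49 had no count. The mouse that was highest for Tph2 was thus also the highest for Slc6a4 in each of these groups. At 500 mg/kg the level was 96.6 CPM in G4, 3.52 in G79, 3.15 in G87 and 6.37 in G90. Again only G4 lay above the vehicle range, with the others of its group below G18 and above the other vehicle mice. The group medians were 1.06, 0.115, 0.573 and 4.95 CPM in order of dose. Fev, which encodes the identity factor, had 84 counts in all, 46 of them in G4, and was under 10 counts in 17 mice and at 0 in 6. Its level was 5.91 CPM in G4 and at most 0.863 CPM in every other mouse, in G45, where it rested on 8 counts.

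Dbh, the noradrenaline synthesis gene, was high in other mice. In the vehicle group its level was 0.154 CPM in G1, 0.526 in G5, 3.33 in G9, 0.132 in G15 and 25.7 in G18. At 125 mg/kg it was 0.461 CPM in G25, 0.279 in G29, 0.161 in G34, 0.585 in G40 and 0.108 in G45, so all 5 mice were low. The level at 250 mg/kg was 15.5 CPM in G49, 3.62 in G64, 0.492 in G66 and 0.141 in G71, and that at 500 mg/kg was 2.57 CPM in G4, 1.34 in G79, 1.58 in G87 and 6.88 in G90. All glyphosate groups overlapped the vehicle range, and 11 of the 18 mice had under 10 Dbh counts. Slc6a2, the noradrenaline transporter gene, was listed with no count in G1, G15, G40 and G71. Its level in the other vehicle mice was 2 CPM in G5, 3.44 in G9 and 80.6 in G18, and at 125 mg/kg it was 1.15 CPM in G25, 0.0929 in G29, 0.321 in G34 and 0.216 in G45. At 250 mg/kg it was 36.0 CPM in G49, 8.92 in G64 and 0.738 in G66, and at 500 mg/kg 9.38 CPM in G4, 3.35 in G79, 6.04 in G87 and 20.4 in G90. G18 was the highest mouse for both genes, G49 the next and G90 the third, and G4, highest for Tph2, was the fourth for Slc6a2 and was not among the 5 highest for Dbh.

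Maoa, the X-linked gene of MAO-A, was expressed in every mouse, at 120 to 424 counts. Its level in the vehicle group was 18.5 CPM in G1, 29.8 in G5, 37.2 in G9, 24.1 in G15 and 41.7 in G18. At 125 mg/kg it was 29.4 CPM in G25, 21.9 in G29, 30.7 in G34, 21.9 in G40 and 33.1 in G45, and at 250 mg/kg 40.2 in G49, 23.5 in G64, 20.5 in G66 and 23.6 in G71. At 500 mg/kg it was 54.5 CPM in G4, 29.8 in G79, 26.5 in G87 and 32.2 in G90. The means were 30.2 ± 9.43 (SD, n = 5), 27.4 ± 5.18 (SD, n = 5), 27.0 ± 8.94 (SD, n = 4) and 35.8 ± 12.7 CPM (SD, n = 4) in order of dose, and G4 was the only dosed mouse outside the vehicle range.

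Maob, the gene of MAO-B, had its highest mean at the lowest dose. Its level in the vehicle group was 13.7 CPM in G1, 13.5 in G5, 25.3 in G9, 14 in G15 and 20.7 in G18. At 125 mg/kg it was 21.5 CPM in G25, 22.5 in G29, 28.1 in G34, 17 in G40 and 42.6 in G45, with G34 and G45 above the vehicle range. At 250 mg/kg it was 15 CPM in G49, 18.4 in G64, 11.8 in G66 and 17.7 in G71, and at 500 mg/kg 25.6 in G4, 13.4 in G79, 18.3 in G87 and 17.7 in G90. The group means were 17.4 ± 5.32 (SD, n = 5), 26.3 ± 9.93 (SD, n = 5), 15.8 ± 3.02 (SD, n = 4) and 18.7 ± 5.04 CPM (SD, n = 4), and no group was separate from the vehicle group.

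**Figure D2:**
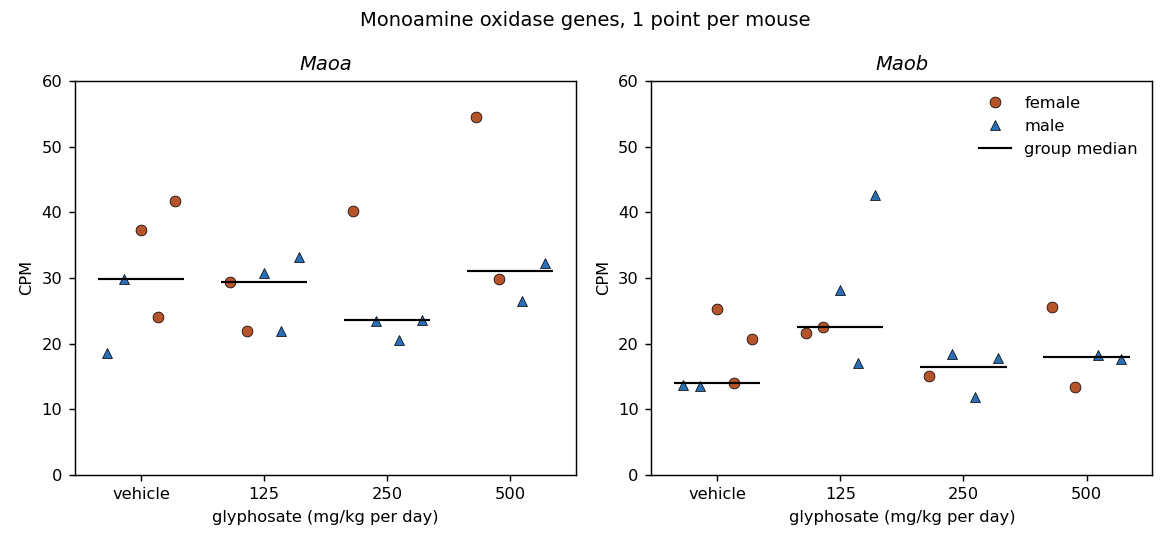
Levels of Maoa and Maob in CPM (vertical axis, from 0) in each mouse by dose group (horizontal axis), with females as circles, males as triangles and the group median as a line. Maoa runs from 18.5 to 54.5 CPM and Maob from 11.8 to 42.6 CPM, and the groups overlap.

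Whether the genes changed with dose was tested by regression of the counts on dose with sex as covariate (quasi-likelihood F test of edgeR, Benjamini-Hochberg adjustment over all 15863 genes, threshold 0.05). No member passed (0 of the 6 tested, Fev being too low to enter), against 46 of all genes tested, or 0.29%. At an unadjusted p under 0.05 were 2 members, Tph2 and Slc6a4, and 13.2% of all genes. DESeq2 and limma-voom also called 0 members, but DESeq2 gave an adjusted p for only 3 of them, Dbh, Maoa and Maob. Its result therefore does not bear on Tph2 and Slc6a4. The slope of Tph2 was 3.45 on the log2 scale per 500 mg/kg (SE 1.15, adjusted p = 0.2074) and that of Slc6a4 3.34 (SE 1.22, adjusted p = 0.2499), against a median of 0.0085 over all genes. Fev, in a fit with no filter on low counts, had a slope of 2.61 (SE 0.968, adjusted p = 0.3111). The slopes of the noradrenaline genes were smaller than their errors, 1.02 (SE 1.3, adjusted p = 0.7827) for Dbh and 1.47 (SE 1.53, adjusted p = 0.7261) for Slc6a2. The slope of Maoa was 0.28 (SE 0.21, adjusted p = 0.5932) and that of Maob -0.14 (SE 0.31, adjusted p = 0.8886).

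Mouse G4 set the size of the serotonin gene slopes. Without it, the slope was 0.29 (SE 1.14, adjusted p = 0.9566) for Tph2, 0.52 (SE 1.32, adjusted p = 0.9251) for Slc6a4 and 0.06 (SE 0.217, adjusted p = 0.9522) for Maoa. Without both G4 and G9 the slopes were 0.28 for Tph2, 0.51 for Slc6a4, 1.63 for Dbh, 2.01 for Slc6a2, 0.10 for Maoa and -0.30 for Maob, and none passed. The titles number the mice by a tag whose meaning they do not give, with 6 numbers over the 18 mice, and in both numbers that hold vehicle and dosed mice the vehicle mice are female and the dosed mice male. With that number as a block (edgeR, 10 residual degrees of freedom, adjusted p = 0.9999 for every member), the slopes were 0.71 for Tph2 (SE 2.61), 1.25 for Slc6a4 (SE 2.82), 6.37 for Dbh (SE 1.99) and 9.19 for Slc6a2 (SE 2.84). No gene at all was then called (0 of 15863), and 2 members, Dbh and Slc6a2, and 2.33% of all genes were at an unadjusted p under 0.05. Only the tag number of the 250 mg/kg mice holds both sexes at 1 dose. Its 1 female, G49, was the highest mouse after G18 for both genes, at 15.54 CPM for Dbh and 36.01 CPM for Slc6a2. Without mouse G45 of the 125 mg/kg group and with no block, the adjusted p of Tph2 was the lowest of all alternatives, 0.06207, with a slope of 4.04.

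**Figure D3:**
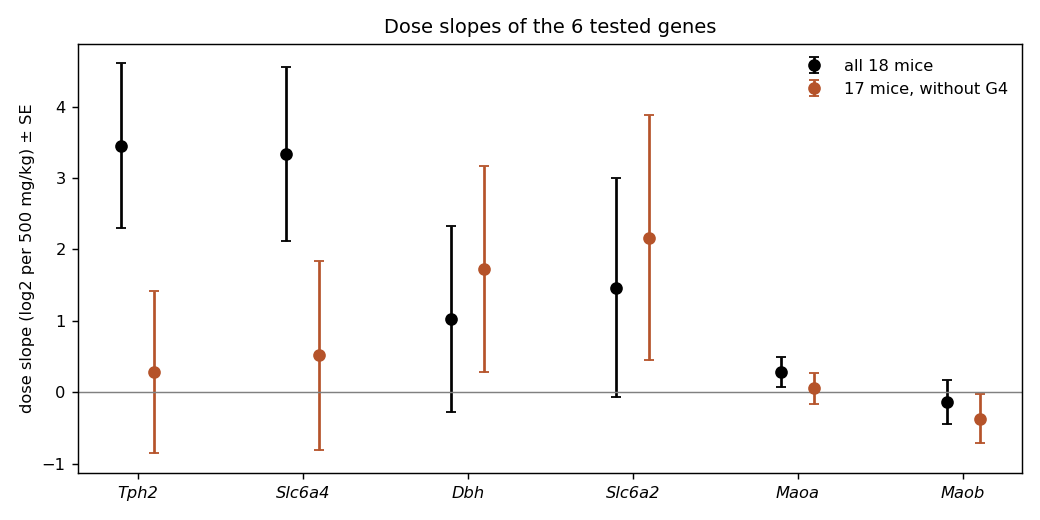
Dose slopes of the 6 tested genes (vertical axis, log2 change per 500 mg/kg, bars are the SE) with all 18 mice in black and without mouse G4 in brown. The slopes of Tph2 and Slc6a4 fall from 3.45 and 3.34 to 0.29 and 0.52 without that mouse.

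Each dose was also compared with the vehicle group in a fit with the 4 groups and sex. The comparisons share the same 5 vehicle mice. At 125 mg/kg no member and no gene at all was called (0 of 15863 genes, 0%), with 3 members and 11.2% of all genes at an unadjusted p under 0.05, and DESeq2 called 0 members of the 5 it gave a value for. These 3 were Slc6a2, at -4.88 on the log2 scale (SE 1.76, adjusted p = 0.3621), Dbh, at -3.51 (SE 1.4, adjusted p = 0.3853), and Maob, at 0.61 (SE 0.259, adjusted p = 0.4034). Vehicle mouse G18 carried a large part of the noradrenaline gene differences, which were -1.96 (adjusted p = 0.6967) for Slc6a2 and -1.50 (adjusted p = 0.7096) for Dbh without it. Without mouse G45 the value of Maob was 0.38 (adjusted p = 0.5216). The change of Tph2 at this dose was 1.21 (SE 1.51, adjusted p = 0.789) with G45 and -1.37 (adjusted p = 0.716) without it.

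At 250 mg/kg no gene was called (0%), no member was at an unadjusted p under 0.05, against 3.76% of all genes, and DESeq2 called 0 of the 5 members it gave an adjusted p for. The log2 change was 1.06 for Tph2, 0.59 for Slc6a4, 0.30 for Dbh, 0.11 for Slc6a2, -0.05 for Maoa and -0.12 for Maob. At 500 mg/kg 0 members were called against 3 of all genes (0.0189%), with 2 members, Tph2 and Slc6a4, and 11.6% of all genes at an unadjusted p under 0.05. DESeq2 called 0 of the 5 members it gave an adjusted p for. It gave none for Tph2 and Slc6a4, so its result does not bear on them. The log2 change was 3.66 for Tph2 (SE 1.29, adjusted p = 0.3016) and 3.47 for Slc6a4 (SE 1.38, adjusted p = 0.3468), and without G4 it was 0.36 for both. That of Dbh was 0.28, of Slc6a2 0.71 (adjusted p = 0.8832), of Maoa 0.28 (adjusted p = 0.6713) and of Maob 0.11. A test of any difference among the 4 groups called 0 members and 7 genes of all (0.0441%). At an unadjusted p under 0.05 in that test were Slc6a2 and Maob (0.03879 and 0.04708, adjusted p = 0.3085 and 0.3301) and 15% of all genes. DESeq2 there called 0 of the 4 members it gave an adjusted p for.

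The sexes were compared because Maoa and Maob are X-linked and because sex and dose were not balanced. No member was called (0 of 6, against 7 of all genes or 0.0441%, and by DESeq2 0 of the 5 it gave an adjusted p for), with 1 member and 7.99% of all genes at an unadjusted p under 0.05. That member was Maoa, at 21.9 CPM in the lowest, 33.5 in the median and 54.5 in the highest of the 8 females and 18.5, 25.1 and 33.1 CPM in the 10 males. The ranges overlapped, and the male level minus the female level was -0.38 on the log2 scale (SE 0.169, adjusted p = 0.6215). Maob was at a median of 21.1 CPM in females and 17.7 CPM in males, with a difference of -0.05 (SE 0.201, adjusted p = 0.949). Dbh (-1.99, SE 0.955, adjusted p = 0.6215) and Slc6a2 (-2.29, SE 1.16, adjusted p = 0.6217) also had lower fitted values in males. A test of whether the dose slope differed between the sexes called 0 members and 0 genes (0%), with 2 members, Dbh and Slc6a2, and 1.65% of all genes at an unadjusted p under 0.05, and every member had an adjusted p of 0.9999. DESeq2 was not run for this term.

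Genes of 1 neuron type varied together between mice, and no correlation between genes of different types passed the test. Over the 18 mice, log2(CPM + 1) was compared for all 21 pairs of members, with permutation p-values from 100000 resamples adjusted over the pairs. For Tph2 and Slc6a4 Pearson's r was 0.985 (permutation p = 1e-05, the smallest the resamples can give, adjusted p = 7e-05) and Spearman's rho 0.93 (permutation p = 1e-05), and r was 0.96 without the 2 mice farthest from the median of Tph2 (G4 and G45). Tph2 and Fev had r = 0.927 (permutation p = 1e-05, adjusted p = 7e-05, rho 0.805, permutation p = 0.00012), and Slc6a4 and Fev r = 0.916 (permutation p = 2e-05, adjusted p = 0.000105, rho 0.793, permutation p = 0.00017), with 0.835 and 0.829 without the 2 farthest mice. Dbh and Slc6a2 had r = 0.965 (permutation p = 1e-05, adjusted p = 7e-05), rho 0.892 (permutation p = 1e-05) and r = 0.935 without G18 and G49. These 4 pairs kept adjusted permutation p-values under the threshold in all 24 settings tried, among them the residuals after the number in the mouse tag and those after dose group and sex, at 0.99 for Tph2 with Slc6a4 and 0.969 for Dbh with Slc6a2.

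Between the neuron types no pair passed in any of the 24 settings. Tph2 and Dbh had r = 0.242 (permutation p = 0.332, adjusted p = 0.388, rho 0.23, permutation p = 0.357) and Tph2 and Slc6a2 r = 0.345 (permutation p = 0.161, adjusted p = 0.261, rho 0.427, permutation p = 0.0786), with 0.446 and 0.495 without G4 and G45. The 5 highest mice were the same for Tph2, Slc6a4 and Fev (G4, G18, G45, G66 and G90). Dbh and Slc6a2 shared 4 of their 5 highest (G18, G49, G64 and G90), each of the 3 serotonin neuron genes shared 2 of its 5 highest with Dbh (G18 and G90) and 3 with Slc6a2 (G4, G18 and G90). In mice with 10 or more counts of both genes, the ratio of counts of Slc6a4 to Tph2 ran from 0.522 to 0.857 over 8 mice and that of Slc6a2 to Dbh from 1.03 to 3.83 over 7 mice, while the ratio of Tph2 to Dbh ran from 0.489 to 72 and that of Slc6a4 to Slc6a2 from 0.108 to 10.3, over 6 mice each. In mice with counts of both genes and 10 or more of at least 1, the ranges were 0.0556 to 0.857 over 13 mice, 1.03 to 3.83 over 10, 0.0476 to 217 over 14 and 0.0811 to 63.5 over 11 in that order.

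**Figure D4:**
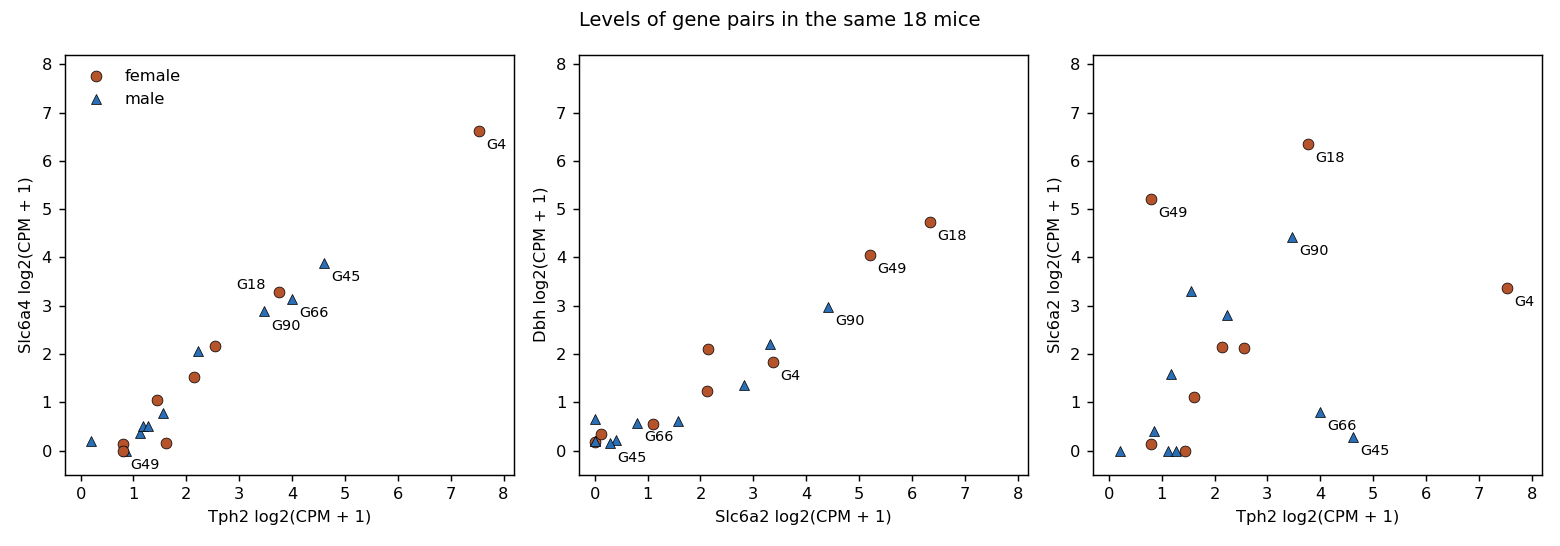
Levels as log2(CPM + 1) of Slc6a4 against Tph2 (left), Dbh against Slc6a2 (middle) and Slc6a2 against Tph2 (right), 1 point per mouse, with females as circles and males as triangles. The first 2 pairs lie along a line (r = 0.985 and 0.965), and the third does not (r = 0.345).

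Maoa also correlated with neuron-type genes, in every setting only with Slc6a2. For Maoa and Slc6a2 r was 0.664 (permutation p = 0.00276, adjusted p = 0.0116), rho 0.688 (permutation p = 0.00224) and r 0.546 without G18 and G49, and the adjusted p passed in all 24 settings. With Dbh r was 0.609 (permutation p = 0.0079, adjusted p = 0.0237), but rho was 0.484 (permutation p = 0.0451, adjusted p = 0.158). The pairs of Maoa with Tph2 (r = 0.611, permutation p = 0.00727, adjusted p = 0.0237, rho 0.441, permutation p = 0.0683), Fev (r = 0.601, permutation p = 0.0091, adjusted p = 0.0239, rho 0.438, permutation p = 0.0708) and Slc6a4 (r = 0.574, permutation p = 0.0131, adjusted p = 0.0305, rho 0.36, permutation p = 0.142) passed by Pearson's r only. They rested on the extreme mice, with r of 0.299, 0.207 and 0.239 without G4 and G45. Maoa and Maob had r = 0.449 (permutation p = 0.0621, adjusted p = 0.13, rho 0.449, permutation p = 0.0634, 0.331 without G1 and G4), which did not pass, and r = 0.688 (adjusted permutation p = 0.0076) in the residuals after dose group and sex. In those residuals Maob also passed with Tph2 (r = 0.556, adjusted permutation p = 0.036) and Slc6a4 (r = 0.563, adjusted permutation p = 0.036), and in the 23 other settings it passed with no member. The numbers in the mouse tags cover too few mice each for a value within a number. In the residuals after the tag number, Maoa passed with Slc6a2 (r = 0.694, adjusted permutation p = 0.00533) and Dbh (r = 0.665, adjusted permutation p = 0.00812) and not with the serotonin neuron genes.

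The genes most like each member over the 18 mice, out of all genes tested, were, for the neuron-type genes, members first. After Slc6a4, Tph2 was most like Ubxn2a (r = 0.934) and Epb41l3 (r = 0.925), which were also the next for Slc6a4 (0.913 and 0.903), and Fev was most like Tph2, Slc6a4 and Asb13 (0.88). After Slc6a2, Dbh was most like Qrsl1 (0.832) and Pttg1 (0.796), and after Dbh, Slc6a2 was most like Qrsl1 (0.821) and Gmpr2 (0.791). For Maoa they were Ublcp1 (0.919), Odr4 (0.916) and A330076C08Rik (0.908), and for Maob Rtl8c (0.856), Retreg1 (0.842) and Prkcq (0.84). Without G4, r was 0.866 for Tph2 with Ubxn2a, 0.836 for Tph2 with Epb41l3 and 0.701 for Fev with Asb13. It was then 0.836 for Dbh with Qrsl1, 0.937 for Maoa with A330076C08Rik and 0.862 for Maob with Rtl8c. The lowest values of Spearman's rho over the 18 mice were 0.566 for Fev with Asb13 and 0.618 for Dbh with Pttg1. All points of these values share their library and its depth.

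Other genes of the same pathways were counted in the dose regression. Of amine synthesis and storage, 1 of 6 tested genes rose and none fell: Ddc, the decarboxylase that makes both dopamine and serotonin (slope 2.58, SE 0.474, adjusted p = 0.03409, mean 2.85 CPM in vehicle mice and 15.7 CPM at 500 mg/kg). No gene of this list was called when any 1 of the mice G4, G5, G15 and G87 was left out, 2 were without G79 and 3 without G18. Calls over all genes also changed with the mouse left out, being fewest without G4 and most without G79. None of the genes called in any list kept its call with the tag number as a block, where no gene was called. Th, tyrosine hydroxylase of dopamine and noradrenaline cells (slope 2, adjusted p = 0.145), Slc18a2, the vesicular monoamine transporter (1.96, adjusted p = 0.08658), and Slc18a1 (0.28) did not pass. Of 6 tested genes that make or recycle tetrahydrobiopterin, the cofactor of the hydroxylases, none was called, the nearest being Gch1, its first enzyme (2.13, SE 0.473, adjusted p = 0.05796), and 1 gene was called by DESeq2 and when G18, G45 or G79 was left out.

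Among 8 other genes of serotonin neurons, 0 were called and 3 were at an unadjusted p under 0.05, against 13.2% of all genes. The median slope was 1.28, against 0.0085 over all genes. The factors Gata2 (1.17, adjusted p = 0.2206) and Gata3 (2.36, adjusted p = 0.2393) and the glutamate transporter Slc17a8 (1.90, adjusted p = 0.3099) were those 3, and Lmx1b had a slope of 1.39 (adjusted p = 0.4466). Of the 8 slopes 6 were positive, among them Htr1a at 0.30 (adjusted p = 0.6895) and En1 at 1.43 (adjusted p = 0.4968), and 2 were negative, En2 at -0.58 (adjusted p = 0.7598) and Htr5b at -0.40 (adjusted p = 0.8133). Of 8 tested noradrenaline neuron genes only Ddc was called, which is shared with dopamine and serotonin neurons, and Tlx3 had a slope of -1.07 (adjusted p = 0.682).

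No receptor was called, neither of 13 serotonin receptors, led by Htr7 (slope 1.01, adjusted p = 0.2499) and Htr2c (0.69, adjusted p = 0.3507), nor of 9 adrenergic receptors, led by Adra2a (0.58, adjusted p = 0.2457) and Adrb1 (-0.92, adjusted p = 0.2793). In either list 3 genes were at an unadjusted p under 0.05, which 13.2% of all genes were in this regression. None of 9 other amine breakdown genes was called, the nearest being Sult1a1, a sulfotransferase (0.65, adjusted p = 0.2537), and Rnls, renalase (-0.60, adjusted p = 0.2629). The same held for 3 tested low-affinity amine transporters, led by Slc29a4 (0.34, adjusted p = 0.6846), and 5 genes of riboflavin uptake and FAD, the oxidases' cofactor, led by Rfk (0.21, adjusted p = 0.5949), with 0 genes in either list at an unadjusted p under 0.05. Of 8 tested factors described as regulators of the oxidase genes 0 were called, 1 had a positive slope and 3 were at an unadjusted p under 0.05, namely Nr3c1, the glucocorticoid receptor (-0.30, adjusted p = 0.2907), Klf11 (-0.50, adjusted p = 0.3099) and Sp3 (-0.28, adjusted p = 0.3107).

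Markers of other cells and regions also differed between mice, and their relation to the members was not tested. Those of hindbrain, midbrain and forebrain are given for each mouse beside Tph2 and Slc6a2. The summed level of 20 Hox genes, which are expressed in hindbrain and spinal cord but not in forebrain, ran between 2.31 and 311 CPM in vehicle mice, between 0.836 and 11.4 at 125 mg/kg, between 4.10 and 57.4 at 250 mg/kg and between 8.15 and 94.2 at 500 mg/kg. It was highest in G9 (311 CPM, 2 of 20 genes at 0), G4 (94.2, 3 at 0), G79 (66.7) and G66 (57.4). The lowest sums were those of G29 (0.836 CPM, 19 of 20 genes at 0), G25 (0.921, 16 at 0) and G45 (1.30, 13 at 0). Midbrain dopamine markers, 4 of which (Th, Slc18a2, Ddc and En1) are also in the serotonin or noradrenaline neuron lists, summed to between 77.5 and 289 CPM in vehicle mice, and between 93.6 and 205 at 125 mg/kg, 137 and 218 at 250 mg/kg, and 222 and 629 at 500 mg/kg, with the highest value in G4. Of 12 tested, 3 rose with dose: Slc6a3, the dopamine transporter (slope 6.30, SE 0.731, adjusted p = 0.0007294), Ddc and Chrna6 (2.93, adjusted p = 0.04269), and 1 was called when any 1 of G4, G5, G15 and G87 was left out, against 5 without G18 or without G79. Forebrain glutamatergic markers summed to between 494 and 4266 CPM in vehicle mice, between 2242 and 4841 at 125 mg/kg, between 1577 and 3824 at 250 mg/kg and between 534 and 2429 at 500 mg/kg. The vehicle mice thus covered the whole 500 mg/kg range, and 0 of 9 genes were called, with Slc17a7 at -1.02 (adjusted p = 0.2974).

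**Figure D5:**
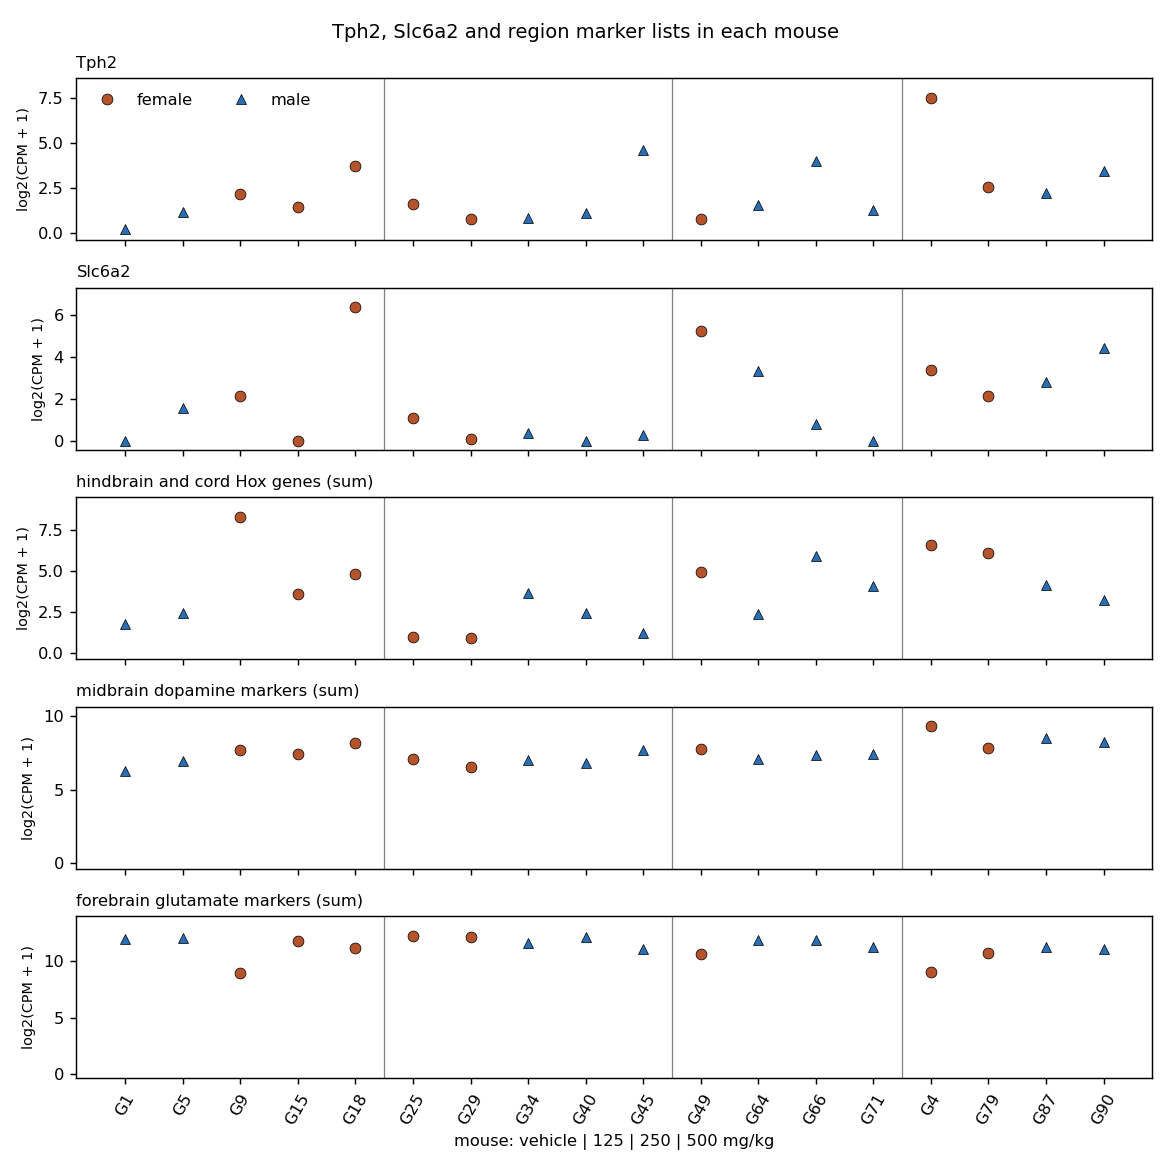
Levels as log2(CPM + 1) (vertical axes) of Tph2, Slc6a2 and the summed Hox, midbrain dopamine and forebrain glutamatergic marker genes in each mouse (horizontal axis, in order of dose, lines between the groups), with females as circles and males as triangles. Mouse G4 has the highest Tph2 and midbrain dopamine levels, and G4 and G9 have the lowest forebrain levels, 534 and 494 CPM.

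The remaining lists described the tissue further. Oligodendrocyte markers summed to between 4321 and 7762 CPM in vehicle mice, between 4283 and 10250 at 125 mg/kg, between 4849 and 7593 at 250 mg/kg and between 6257 and 17530 at 500 mg/kg, highest in G4. Of these 14 genes 0 were called, although all 14 slopes were positive and 12 were at an unadjusted p under 0.05 (Hapln2 1.11, adjusted p = 0.08271), against 13.2% of all genes. Astrocyte markers, of the cells in which MAO-B is abundant, summed to between 7910 and 11020 CPM in vehicle mice, and between 9767 and 12440 at 125 mg/kg, 8996 and 11250 at 250 mg/kg, and 8768 and 10840 at 500 mg/kg, with 0 of 15 called. Of 9 tested hypothalamic genes 1 was called, Irs4 (slope 3.22, adjusted p = 0.03612), and 0 were called when any 1 of G1, G4, G5, G15, G25, G40 and G87 was left out. DESeq2 called 4 oligodendrocyte genes, 1 astrocyte gene, 3 hypothalamic genes, 6 midbrain dopamine genes and 2 genes each of amine synthesis and noradrenaline neurons. It called 0 in every other list except the 1 of tetrahydrobiopterin synthesis, and limma-voom called as many in each list as edgeR. Without G45 1 oligodendrocyte gene was called, and without G79 3. None was called of 12 tested Hox, 4 glycinergic, 8 cerebellar, 11 endothelial, 8 choroid plexus and 1 tested pineal gene, with 0, 2, 0, 1, 0 and 0 of them at an unadjusted p under 0.05 in that order.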

How the data were processed

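RNA was isolated by the authors from half-brains and sequenced in pairs as stranded libraries of total RNA from which ribosomal RNA had been removed. The processing tools named with the series are STAR 2.7.5b, featureCounts, MultiQC 1.12 and DESeq2 1.34.0, with build GRCm38. The deposited table holds raw counts per gene by Entrez number, with no normalization, for 18 mice. The strand setting of the counting is not given in the sources used here. Of the identifiers, 25275 were found in RefSeq GRCm38.p6.

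Counts were analysed in R 4.3.3 with edgeR 4.0.16 (quasi-likelihood F test with 1 dispersion trend, TMM scaling, low genes removed with filterByExpr at a minimum of 10 counts). The biological coefficient of variation was 25.8%. Dose was divided by 500 mg/kg, and sex was a covariate. Alternatives were DESeq2 1.42.0, limma-voom (limma 3.58.1), other filters, scaling and dose codes, leaving out each mouse, and a block for the tag number. No 2 libraries of a group were alike within sampling noise, with a chi-square per degree of freedom of 9.02 to 76.9 over 32 pairs. The tests were tested on simulated data. Correlations used log2(CPM + 1).

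The members and gene lists were chosen with earlier results of these data known. Named genes were the members, up to 4 genes of each list with the smallest p in the dose regression, and the 3 genes most correlated with each member. Tlx3, En1, En2, Htr1a and Htr5b were named after their values were seen. Some genes of the lists are not reported by name here.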

Additional observations from a re-analysis of the deposited data

Results flagged for a closer look

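In 14 of 28 groups of levels, 1 mouse lay apart from the others of its dose group by Dixon's criterion at 95%, where chance gives about 1 in 20 for normally distributed values. Levels in CPM are skewed to high values, and on the log2(CPM + 1) scale 3 of these 14 mice and genes remained, G45 for Tph2, Slc6a4 and Fev. For Tph2 these were G18 in the vehicle group (12.56 CPM, next mouse 3.435), G45 at 125 mg/kg (23.42, next 2.072), G66 at 250 mg/kg (15, next 1.929) and G4 at 500 mg/kg (185.0, next 10.07). For Slc6a4 they were the same mice, G18 (8.704 CPM), G45 (13.71), G66 (7.869) and G4 (96.63). For Fev they were G45 (0.8634 CPM) and G4 (5.911). For Dbh it was G18 (25.68 CPM), and for Slc6a2 G18 (80.62 CPM) and G25 (1.151 CPM, on 10 counts). For Maoa it was G49 at 250 mg/kg (40.2 CPM, next 23.63), and no mouse lay apart for Maob. The flags of genes of 1 neuron type are not independent of each other, since these genes varied together.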

How the results depend on the processing

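The count of members called was 0 in every alternative run, for every comparison, though DESeq2 gave an adjusted p for only 3 to 5 of the 7 members. The adjusted p ran from 0.06207 to 0.9999 for the dose slope of Tph2 and from 0.08344 to 0.9999 for that of Slc6a4. Without sex as covariate the slopes of Dbh and Slc6a2 were -0.4477 and -0.354, and their changes at 500 mg/kg -0.9133 and -0.7904. Without the 500 mg/kg mice the slopes were -0.4503 for Tph2, -1.836 for Slc6a4 and -0.1234 for Maoa. In females alone they were -1.581 for Dbh and -1.553 for Slc6a2. The change of Dbh at 500 mg/kg was -0.1038 with only these groups and -0.08762 with the default form of edgeR 4, which was added after seeing the data, as were the alternatives of the changes at 125 mg/kg. With the tag number as a block, also added after seeing the data, the change at 125 mg/kg was -3.537 for Tph2, -8.369 for Slc6a4 and 0.2919 for Maoa, that at 500 mg/kg -1.638 for Tph2, -5.884 for Slc6a4 and -0.218 for Maob, and the sex difference 3.031 for Tph2, 7.552 for Slc6a4 and 0.08707 for Maob. With this block Dbh changed by 4.656 (SE 1.605) and Slc6a2 by 6.322 (SE 1.977) at 500 mg/kg, against 0.2796 and 0.715 without it. Both were at an unadjusted p under 0.05 (edgeR), as were 3.83% of all genes, and at an adjusted p of 0.999. Within a tag number, only the 250 mg/kg mice hold both sexes at 1 dose. Their 1 female, G49, had 3 Tph2 counts and no Slc6a4 count. The cause of the reversals in this paragraph was not tested.

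With 1 mouse left out, the slope ran from 0.2851 to 4.284 for Tph2, 0.518 to 4.417 for Slc6a4, -0.2472 to 2.753 for Dbh, 0.1902 to 3.891 for Slc6a2, 0.05778 to 0.396 for Maoa and -0.3665 to 0.01636 for Maob. The change at 500 mg/kg ran from 0.3629 to 4.758, 0.3592 to 4.833, -1.07 to 2.027, -0.4908 to 3.083, 0.06089 to 0.4127 and -0.1001 to 0.281 in that order of genes. That at 125 mg/kg ran from -1.369 to 2.057, -3.945 to 1.825, -4.018 to -1.504, -5.664 to -1.957, -0.15 to 0.1285 and 0.3805 to 0.7653. The sex difference ran from -2.171 to 0.6332, -2.342 to 0.8972, -2.648 to -1.249, -2.949 to -1.158, -0.4932 to -0.2898 and -0.1778 to 0.03948. The number of correlated pairs, 9 of 21, ran from 5 (without G18) to 9, and was 6 in the residuals after the tag number.

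All genes called in the dose regression numbered 46, against 29 with no filter, 27 with dose as rank, 229 by DESeq2 and 0 in either sex alone, without the 500 mg/kg mice or with the tag number as a block. Leaving out 1 mouse gave 2 (without G4) to 127 (without G79). DESeq2 called 166 genes against 3 at 500 mg/kg, 40 against 0 at 125 mg/kg, 24 against 0 at 250 mg/kg, 540 against 7 for any group difference and 43 against 7 between the sexes. At 500 mg/kg edgeR called 9 genes with no filter, 7 without sex as covariate, 8 in its default form and 1 with only these groups. With at least 10 counts in every library, only 2 members could be tested. No paired analysis was possible because the labels give no replicate number shared between groups. With the tag number as a block 250 mg/kg could not be compared, since its mice share 1 number that no other mouse has. Depth limits Fev and the low mice of Tph2, Slc6a4, Dbh and Slc6a2, whose levels rest on under 10 counts.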
